A study of Mus musculus with 16 samples.

Results

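The nuclear-encoded subunits of oxidative phosphorylation, the respiratory chain and ATP synthase of mitochondria, were followed in spinal cords of spastic mice, B6C3Fe mice and control mice. A probe set, the group of array probes read as 1 intensity, was a member where the platform annotation gives it a single gene symbol beginning with Nduf, Uqcr, Cox4 to Cox8 or Atp5, or the symbol Sdha, Sdhb, Sdhc, Sdhd or Cycs. This gave 99 of 12488 probe sets, from 72 of the 8251 genes that the annotation names singly. Complex I has 42 of them, complex II 4, complex III 7, cytochrome c 1, complex IV 23 and complex V 22. The names also bring in 3 genes that are not subunits, the complex I assembly factors Ndufaf1 and Ndufaf4 and the supercomplex factor Cox7a2l, with 5 probe sets between them. A further 10 probe sets that name a member together with other genes were not counted.

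The series has 16 single-colour arrays of RNA from mouse spinal cord. By title, 6 arrays are of spastic mice of 2 to 6 months, 2 of male B6C3Fe mice of 1 month, and 8 of controls of 9 and 12 months, 4 arrays at each age, evenly split by sex. In spastic mice both copies of Glrb, the gene for the glycine receptor's beta subunit, carry the mutation, in every cell. B6C3Fe is a hybrid stock. The titles give no genotype or strain for the controls. Arrays named a and b under a shared title were averaged, leaving 5 spastic samples (titled Spa-M at 6 months, Spa1 and Spa2 at 2 months, Spa-sev at 3 months and Spa3+ at 3 months or more), 1 B6C3Fe sample and 4 control samples. Whether the arrays of a title come from separate animals is not stated, so the p-values measure only the spread between these samples.

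Several things differ between the groups besides the mutation. Age changes with group, so the effects of age and group cannot be told apart between them. Both spastic arrays titled male had Xist levels of 10.37 and 10.54, just under the 10.55 to 12.07 of arrays titled female and far above the 5.93 to 5.97 of the other arrays titled male. All spastic samples thus had Xist, while the controls included samples with and without it. Glrb was at 9.92 to 11.11 (log2 intensity) on spastic arrays, at 12.92 to 12.98 on B6C3Fe arrays and at 12.70 to 13.30 on control arrays. The median intensity per array was 289 to 383.6, and precision is limited by how few arrays there are. In whole tissue, fewer cells of a type and less RNA per cell cannot be told apart.

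Complex I (NADH dehydrogenase) and complex II (succinate dehydrogenase) pass electrons to ubiquinone, complex III hands them to cytochrome c, and complex IV (cytochrome c oxidase) gives them to oxygen. Complexes I, III and IV pump protons, and complex V, the ATP synthase, lets them flow back to make ATP. Neurons draw most of their ATP from this pathway, and motor neurons with long axons are among the cells in which its defects show. The transcription factors NRF-1 and GABP bind promoters of many of these genes in mammals.

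The RefSeq promoter windows (GRCm38.p6, 250 bases before to 50 after the start) show how far the members share these promoter letters. Of the 72 genes, 59 had a window. The palindromic NRF-1 core CGCATGCG occurs in 10 of the 59 (16.9%), against 2.07% of all 27025 genes with a window. The ETS core CCGGAAG, searched on both strands as a GABP core, occurs in 16 (27.1%), against 9.93% of all. Below are stretches of the minus-strand promoters of Cycs, whose RNA was lower in spastic cords, and of Ndufa8 and Atp5j, whose RNA was higher, with the NRF-1 core in capitals; they were chosen because the same core stands upstream of genes that differed in opposite directions. They lie at chr6:50566597-50566656, chr2:36049339-36049373 and chr16:84835090-84835149.
Cycs: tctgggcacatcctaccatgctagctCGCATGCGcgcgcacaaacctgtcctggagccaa
Ndufa8: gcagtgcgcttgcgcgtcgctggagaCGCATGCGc
Atp5j: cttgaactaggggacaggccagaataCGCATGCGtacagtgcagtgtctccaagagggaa
The core spans bases -61 to -54 before the RefSeq start in Cycs, -9 to -2 in Ndufa8 and -147 to -140 in Atp5j. A match describes the letters only and is no evidence of binding. Among the 14 genes called below that have a window, 4 hold the NRF-1 core and 5 the ETS core.

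Between spastic and control cords, members were called in both directions. Most accessory subunits of complex I had positive differences, most of complex IV negative ones, and cytochrome c was lower. Testing was limited to probe sets with a mean log2 intensity above 7.62, the 40th percentile of all such means, which 76 of the 99 members (66 of 72 genes) passed. With limma's moderated test and Benjamini-Hochberg adjustment over all 7453 probe sets tested, 12 members were higher and 4 lower in spastic cords at an adjusted p under 0.05. The 16 called are 21.1% of members tested, close to the 19.3% of all probe sets tested that were called. The split differed from the background, in which 8.61% were called higher and 10.7% lower. The median difference was 0.06 (log2) over the members and -0.03 over all probe sets tested. This contrast depended on the scaling, since quantile normalization gave 0.04 over the members and 0.03 over all. As scaled by the authors, 45 members (59.2%) had a positive difference against 46.0% of the other probe sets. All spastic samples lay above all controls for 11 members (background 8.57%) and below them for 5 (background 10.8%), which is 21.1% without overlap against 19.4% of all.

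The differences were small. Called members differed by 1.21-fold to 1.82-fold, 68 of the 76 differed by less than 0.5 on the log2 scale, and 0 differed by more than 1. In the fits that left out 1 sample, 7 of the 16 kept their call every time: Cycs, Ndufb6, Ndufb7, Ndufv3, Uqcr11, Cox6c and Atp5d. The sign of all 16 held in every alternative run.

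**Figure D1:**
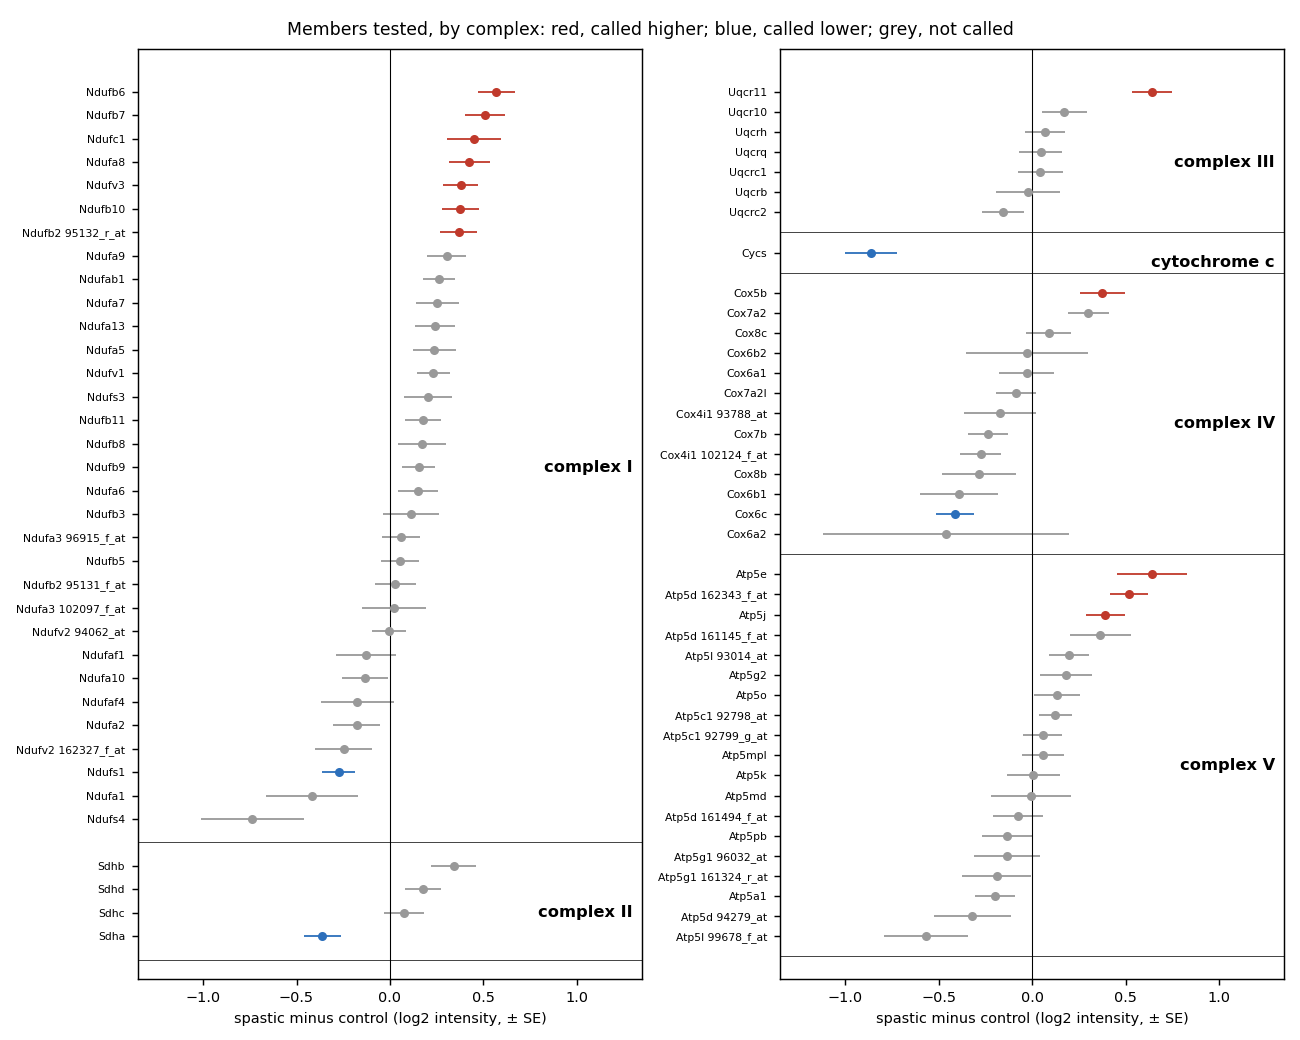
Difference between spastic and control means (log2 intensity, points with SE) for the 76 members tested, grouped by complex and ordered by difference, with probe set names where a gene has several. Complex I has 7 red points (called higher) and 1 blue point (called lower), complex IV leans to the left of 0, and Cycs is the farthest left at -0.86.

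In complex I, 23 of 32 probe sets had a positive difference, 7 were called higher and 1 lower, and the median difference was 0.16. The share called was 25%, against 19.3% of all probe sets tested. The counts are given by role. Of 25 probe sets for accessory subunits, which surround and stabilise the enzyme, 7 were called higher and 0 lower (21 positive; 0 of the 4 negative ones passed). Of 5 for core subunits, which carry the flavin and the iron-sulfur clusters, 0 were higher and 1 was lower. All 10 tested probe sets of the Ndufb subunits, which belong to the membrane arm, had a positive difference, and 4 were called. Ndufb2 gives 2 of these 10. For these counts by role and name, the background is 8.61% of all probe sets tested called higher and 10.7% called lower. Of the probe sets that are not members, 46.0% had a positive difference.

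Spastic samples are listed below in the order Spa-M, Spa1, Spa-sev, Spa3+ and Spa2, and controls as 12-month female, 12-month male, 9-month female and 9-month male. Ndufb6 had log2 intensities of 13.30, 13.20, 13.32, 13.28 and 13.07 in the spastic samples, 12.73 in the B6C3Fe sample and 12.57, 12.85, 12.63 and 12.60 in the controls. Every spastic sample was above every other sample, and the difference was 0.57 (SE 0.10, adjusted p = 0.00324, limma). Ndufb7 had 13.15, 12.98, 12.98, 13.12 and 12.90 in the spastic samples, 12.91 in B6C3Fe and 12.40, 12.68, 12.65 and 12.35 in the controls. Here the groups did not overlap either (0.51, SE 0.11, adjusted p = 0.00732, limma), while the B6C3Fe sample lay at the low edge of the spastic range. The other Ndufb7 probe set was at or near the floor.

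Ndufv3, a small accessory subunit of the NADH-binding module, had 10.89, 10.94, 10.76, 10.60 and 10.89 in spastic samples, 10.35 in B6C3Fe and 10.40, 10.47, 10.45 and 10.43 in controls. The controls were tight (SD 0.03, n = 4) and the lowest spastic sample, Spa3+, was still above them all (0.38, SE 0.09, adjusted p = 0.0174, limma). Ndufb10 was higher by 0.38 (SE 0.10, adjusted p = 0.0226), again without overlap. Ndufa8, an accessory subunit of the membrane arm, had 11.69, 11.49, 11.66, 11.79 and 11.32 in spastic samples, 11.05 in B6C3Fe and 11.10, 11.08, 11.36 and 11.12 in controls. The groups overlapped, because Spa2 lay below the 9-month female control (0.43, SE 0.11, adjusted p = 0.0213, limma).

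Probe sets of a gene did not always give the same call. Ndufb2 was higher by 0.37 on 95132_r_at (SE 0.10, adjusted p = 0.0231) and by 0.03 on 95131_f_at, which was not called (adjusted p = 0.885). Ndufc1 (0.45, adjusted p = 0.0498) sat at the threshold and lost its call in 7 of the 10 fits without 1 sample. Ndufs1, the largest core subunit and carrier of several iron-sulfur clusters, had 11.58, 11.54, 11.65, 11.82 and 11.65 in spastic samples, 11.75 in B6C3Fe and 11.90, 11.86, 12.01 and 11.92 in controls. It was lower in every spastic sample (-0.27, SE 0.09, adjusted p = 0.0467, limma), but the call was lost in 8 of those 10 fits. Ndufs4, an accessory subunit whose loss causes a Leigh-like disease in mice, had the most negative difference of complex I, -0.74, with overlapping groups (SE 0.28, adjusted p = 0.0823).

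Complex II is encoded wholly in the nucleus, so all 4 of its subunits are members, and its 2 catalytic subunits had differences of opposite sign. Sdha, the flavoprotein that oxidises succinate, had 10.63, 10.62, 10.93, 10.80 and 10.71 in spastic samples, 10.52 in B6C3Fe and 11.05, 10.99, 11.26 and 11.09 in controls. Every spastic sample was below every control, and the B6C3Fe sample was lower than all of them (-0.36, SE 0.10, adjusted p = 0.0244, limma). Sdhb, the iron-sulfur subunit, had 12.58, 12.48, 12.57, 12.93 and 12.34 in spastic samples, 12.25 in B6C3Fe and 12.07, 12.30, 12.33 and 12.27 in controls. Its groups did not overlap, but the difference of 0.34 (SE 0.12) missed the threshold (adjusted p = 0.0651). The membrane anchors Sdhc (0.08, adjusted p = 0.662) and Sdhd (0.18, adjusted p = 0.226) were not called.

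In complex III only Uqcr11, a small accessory subunit, was called among 7 probe sets (14.3%, against 19.3% of all). The median difference of the complex was 0.05. Uqcr11 had 12.25, 12.45, 12.18, 12.14 and 12.16 in spastic samples, 11.61 in B6C3Fe and 11.35, 11.75, 11.65 and 11.64 in controls. It was 1.56-fold higher in spastic cords with a wide gap between the groups (0.64, SE 0.11, adjusted p = 0.00257, limma). Its neighbours in the enzyme were not called. The core protein Uqcrc2 had a difference of -0.16 (adjusted p = 0.348) and Uqcrq one of 0.05 (adjusted p = 0.813).

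Cytochrome c, the mobile carrier between complexes III and IV that also triggers apoptosome assembly when released, had the largest difference of all members tested. Cycs had 9.76, 9.86, 10.12, 9.77 and 9.94 in spastic samples, 10.08 in B6C3Fe and 10.92, 10.34, 11.01 and 10.74 in controls. All spastic samples lay below all controls, and the B6C3Fe sample lay within the spastic range. The difference was -0.86 (SE 0.14, 1.82-fold lower, adjusted p = 0.00233, limma). Within the controls the female minus male difference of Cycs was 0.42 (limma, unadjusted p = 0.0314, which did not pass adjustment). All spastic samples had Xist. In the fit with only samples titled female, all of which had Xist, Cycs was still called lower in spastic cords. What part sex by Xist has in the spastic difference was not tested otherwise.

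In complex IV, 10 of 13 probe sets had a negative difference (median -0.17). Called were 1 higher and 1 lower (15.4%, against 19.3% of all). Cox6c had 13.69, 13.50, 13.54, 13.53 and 13.51 in spastic samples, 13.61 in B6C3Fe and 14.01, 13.80, 14.00 and 14.06 in controls. The groups were apart, with Spa-M nearest the controls (-0.41, SE 0.10, adjusted p = 0.0154, limma). Its other 2 probe sets were below the filter. Cox5b, which binds zinc on the matrix side, had 13.12, 13.06, 13.06, 13.36 and 12.82 in spastic samples, 12.32 in B6C3Fe and 12.75, 12.51, 12.88 and 12.71 in controls. Spa2 overlapped the controls (0.37, SE 0.12, adjusted p = 0.0487, limma), and the call was lost in 7 of 10 fits without 1 sample.

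The ubiquitous isoforms of complex IV were mixed and not called. Cox4i1, which regulates the enzyme by binding ATP, was below every control on 102124_f_at (-0.28, SE 0.11, adjusted p = 0.0976) and at -0.17 on 93788_at (adjusted p = 0.573). Cox6b1 had a difference of -0.39 (adjusted p = 0.213), Cox7a2 of 0.30 (adjusted p = 0.0778) and Cox6a1 of -0.03 (adjusted p = 0.914). Cox8a, below the filter, stayed at 5.93 to 6.06 in spastic samples, 5.93 in B6C3Fe and 6.04 to 6.61 in controls, next to the floor of 5.93 that was set under all values.

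In complex V, 3 of 19 probe sets were called higher and 0 lower (15.8%, against 19.3% of all), and the median difference was 0.06. The called ones read Atp5e and Atp5d, the epsilon and delta subunits of the central stalk, and Atp5j, coupling factor 6 of the outer stalk. Atp5e had 11.83, 11.81, 11.47, 11.33 and 11.14 in spastic samples, 11.22 in B6C3Fe and 10.38, 11.02, 11.24 and 10.86 in controls. Spa2 fell within the control range (0.64, SE 0.19, adjusted p = 0.0312, limma), and the call was lost in 5 of 10 fits without 1 sample. Atp5j had 12.49, 12.55, 12.31, 12.56 and 12.36 in spastic samples, 12.42 in B6C3Fe and 12.09, 11.99, 12.28 and 11.89 in controls. All spastic samples, and the B6C3Fe sample, were above all controls (0.39, SE 0.10, adjusted p = 0.0221, limma).

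Atp5d shows how far the probe set matters. On 162343_f_at it had 10.88, 10.94, 10.79, 10.88 and 10.71 in spastic samples, 10.52 in B6C3Fe and 10.37, 10.54, 10.22 and 10.16 in controls, without overlap (0.52, SE 0.10, adjusted p = 0.00581, limma). Its other tested probe sets had differences of 0.37, -0.08 and -0.32, and 0 of these 3 were called. Atp5l, a membrane subunit of the dimer interface, likewise had 0.20 on 93014_at and -0.57 on 99678_f_at, neither called (adjusted p = 0.221 and 0.0981). The c-ring genes were not called: Atp5g1 had differences of -0.19 and -0.14, and Atp5g2 one of 0.18.
Of the 76 members tested, 25 carry a letter before the ending at in the probe set name, by which the manufacturer marks probes that are shared or less specific. They hold 3 of the calls higher and 1 of the calls lower, so for Atp5d, Atp5e, Cox6c and Ndufb2 signal from near-identical copies is not distinguished.

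**Figure D2:**
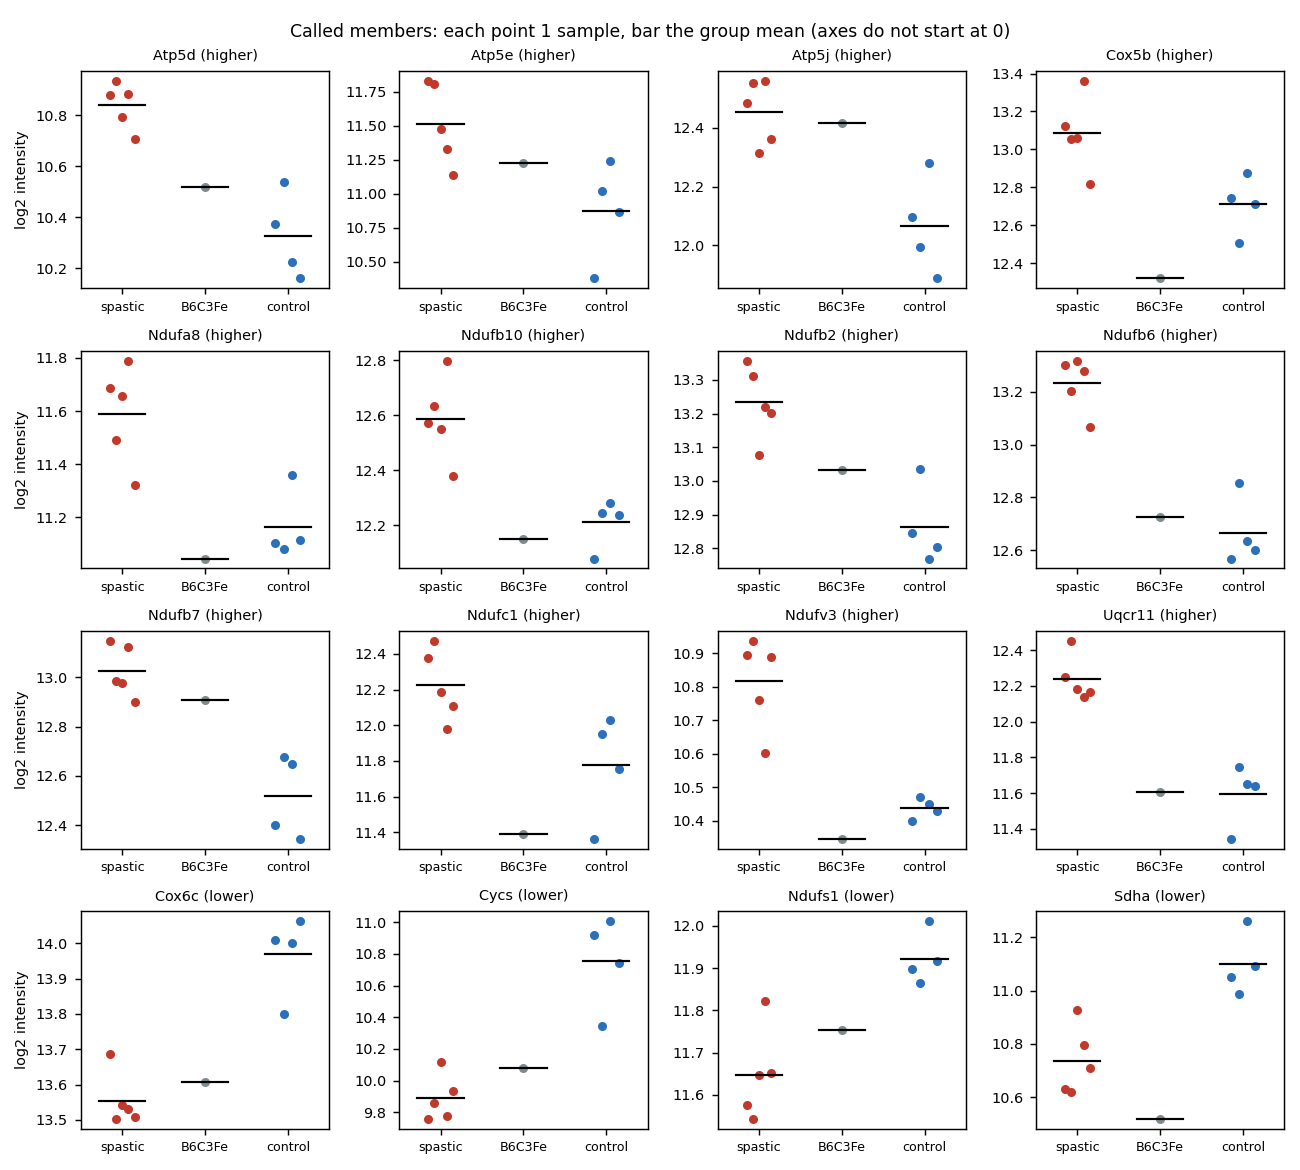
Log2 intensity of the 16 called probe sets in each sample (points; spastic n = 5, B6C3Fe n = 1, control n = 4), with the group mean as a bar; each panel has its own axis. The groups of spastic and control points do not overlap in 12 of the 16 panels, and the B6C3Fe point lies nearer the control mean in 9 and nearer the spastic mean in 7.

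Complex IV has isoforms made mainly in heart and skeletal muscle, and these varied widely between samples or lay low. Cox6a2 had 6.65, 8.22, 9.85, 6.96 and 10.26 in the spastic samples, 7.49 in B6C3Fe and 9.05, 8.52, 9.26 and 8.58 in controls. Spa-sev and Spa2 were above every control and Spa-M and Spa3+ far below, so the spastic SD was 1.64 against 0.36 in controls, and the difference of -0.46 was not called (SE 0.66, adjusted p = 0.663). Spa-sev and Spa2 were both above Spa-M and Spa3+ in 22 of the 34 probe sets of the skeletal muscle list, and both below them in 1. A further 5 were at the floor in all spastic samples, and 6 had another order. The order looked for was taken from the Cox6a2 values. How many of all probe sets share it was not counted, so it is not shown to be particular to muscle genes. Mb, myoglobin, had 6.81, 6.91, 8.47, 6.28 and 9.59 in spastic samples, 7.92 in B6C3Fe and 7.65 to 7.76 in controls. Acta1, skeletal actin, had 8.73, 10.61, 11.75, 8.30 and 12.65 in spastic samples, 11.05 in B6C3Fe and 11.22 to 12.31 in controls.

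For Cox7a1 and both probe sets of Cox8b, Spa-sev and Spa2 again lay above Spa-M and Spa3+. Unlike for Cox6a2, neither Spa-sev nor Spa2 was above every control. Cox7a1, below the filter, had 6.63, 7.09, 6.82, 6.30 and 6.98 in spastic samples, 6.86 in B6C3Fe and 7.89, 7.71, 7.82 and 7.34 in controls. All spastic samples were below all controls, and a fit without the filter gave -0.93 (SE 0.19, adjusted p = 0.0215, limma). Cox8b on 161205_at, also below the filter, gave -0.97 in that fit (SE 0.24, adjusted p = 0.0447), with 2 spastic samples at the floor. On 160851_r_at Cox8b had -0.29 and was not called (adjusted p = 0.344). The isoforms associated with testis, Cox6b2 (-0.03) and Cox8c (0.09), were not called on the tested probe sets.

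Over the skeletal muscle list, 0 genes were called higher and 2 lower of 18 tested (11.1%, against 19.3% of all probe sets). The summed intensity of its 34 probe sets was 8593 to 25234 in spastic samples, 15421 in B6C3Fe and 13739 to 22604 in controls. The 2 were Actn3, the actinin of fast fibres, which fell by 0.79 on the log2 scale (adjusted p = 0.0156), and Car3, a carbonic anhydrase, which fell by 2.28 (adjusted p = 0.00473). On its other tested probe set, 100879_at, Actn3 fell by 2.12 (adjusted p = 0.000608, limma). Probe sets disagreed here too: Myh4, a fast myosin, fell by 3.35 on 98488_at (adjusted p = 0.00155) and had a difference of 0.17 on 161545_r_at (adjusted p = 0.501), the one with the higher mean. Both Cox7a1 and Cox8b are also abundant in brown fat. Of 3 adipose genes tested, only Cidea was called, and it was lower (-0.62, adjusted p = 0.0156, limma). That is 33.3%, against 19.3% of all probe sets tested. Dio2 (0.27, adjusted p = 0.485, limma) and Lep (-0.11, adjusted p = 0.756) were not called. Ucp1 on 99507_at was at the floor of 5.93 in 4 spastic samples and at 6.24 in Spa-M, against 7.56 in B6C3Fe and 6.44 to 8.65 in controls. Adipoq had 5.96, 7.44, 6.37, 6.46 and 8.66 in spastic samples and 6.54 to 8.56 in controls. The summed adipose list was 2077 to 3508 in spastic samples and 2964 to 3856 in controls. The part of muscle or fat RNA in these isoform values was not tested.

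**Figure D3:**
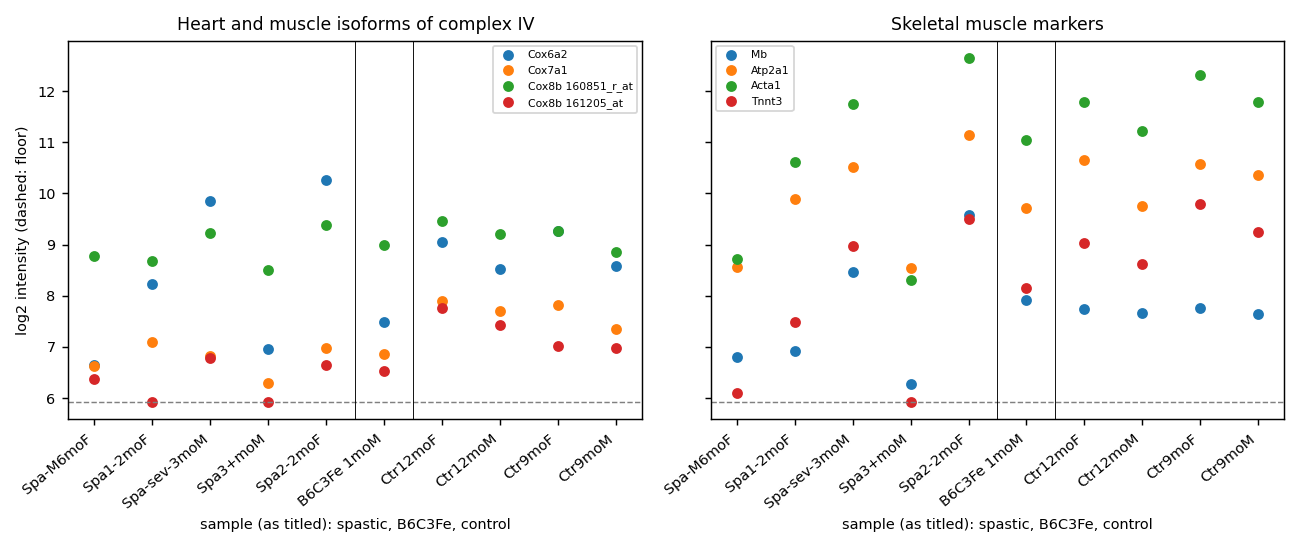
Log2 intensity of the muscle isoforms of complex IV (left) and of 4 skeletal muscle markers (right) in each sample, spastic, B6C3Fe and control from left to right, with the floor dashed. Among the spastic samples Cox6a2, Acta1 and Mb are each highest in Spa2 and Spa-sev and lowest in Spa-M and Spa3+, while Cox7a1 lies at 6.30 to 7.09 in spastic samples and 7.34 to 7.89 in controls.

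The samples of a group did not shift alike. Over the 32 complex I probe sets, the median level relative to each probe set's mean was 0.10, 0.12, 0.07, 0.08 and -0.02 in the spastic samples, 0.01 in B6C3Fe and -0.17, -0.04, -0.06 and -0.11 in controls. All spastic medians were above all control medians, with Spa2 close to the controls. Among the 16 called members, Spa2 was the spastic sample nearest the control mean in 7, Spa-sev and Spa3+ in 4 each, and Spa-M in 1. Complex IV medians ran from -0.19 (Spa3+) to 0.05 (Spa-sev) in spastic samples and from -0.08 to 0.23 in controls, so they overlapped. Complexes II, III and V overlapped too.

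**Figure D4:**
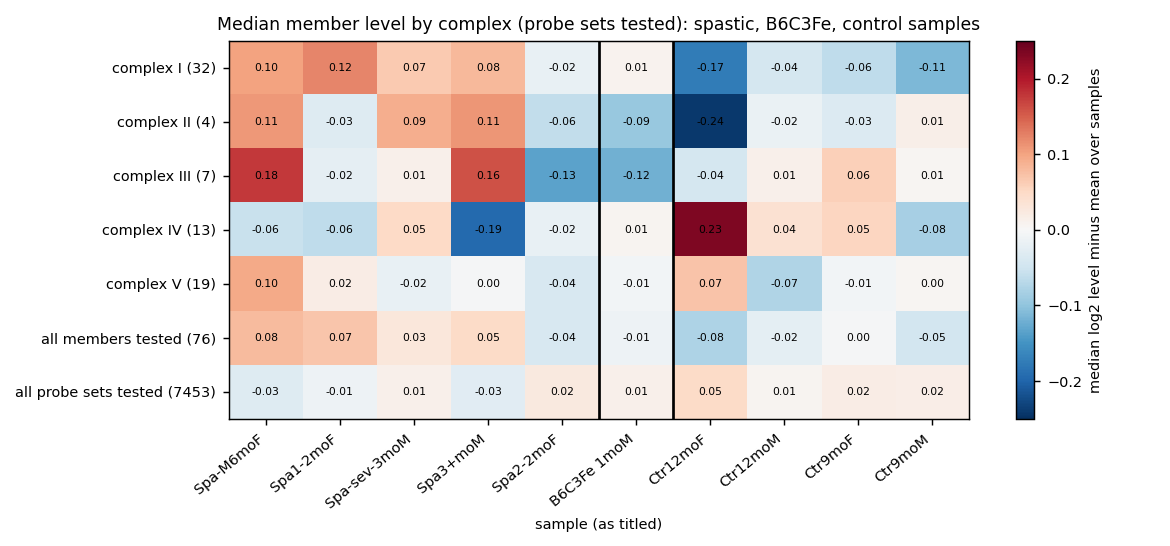
Median log2 level of the tested probe sets of each complex in each sample, relative to each probe set's mean over the samples; the number of probe sets is in brackets. In the complex I row the spastic samples (left) run from -0.02 to 0.12 and the controls (right) from -0.17 to -0.04, while the bottom row, all probe sets tested, stays within 0.05 of 0.

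A measure of RNA quality was higher in spastic samples at an unadjusted p under 0.05, and missed that threshold after adjustment. The log2 ratio of the 3-prime to the 5-prime control probe set of Pcx, pyruvate carboxylase, was 2.51, 2.18, 2.24, 2.98 and 2.00 in the spastic samples, 1.78 in B6C3Fe and 1.59, 1.80, 2.02 and 1.53 in controls. Spastic samples were higher by 0.65 (exact permutation test, 126 splits, 2-sided p = 0.0238; 0.0952 after Benjamini-Hochberg adjustment over 4 such ratios), and Spa2 had their lowest ratio. The ratios of Gapdh (p = 0.77), Actb (p = 0.302) and Tfrc (p = 0.222) did not pass the same exact test. With the Pcx ratio as a term in the fit, 0 members were called by limma (13 at an unadjusted p under 0.05), against 0.631% of all probe sets tested. The smallest adjusted p was then 0.0874, for Uqcr11, whose difference of 0.65 was as large as before. Cycs was at -0.77 (adjusted p = 0.107) and Ndufb6 at 0.46 (adjusted p = 0.145), while Ndufa8 and Cox5b shrank to 0.15 and 0.10.

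Arrays a and b of a title were compared for all 6 titles with both. Among the control titles, the median member gap was larger where the gap in the Pcx ratio was larger. In B6C3Fe and Spa-M the gaps in members and in ratio had opposite signs. Array a of the 9-month female controls had a Pcx ratio of 2.72 and array b 1.31. On array a 61 of the 76 members were higher than on array b, by a median of 0.28 over all members and 0.38 over complex I, while 49.6% of all probe sets tested were higher there, with a median of -0.0035. All 12 members called higher in spastic cords were higher on array a, and so were 3 of the 4 called lower. The 12-month males, with ratios of 2.09 and 1.5, had a median member gap of 0.15, with 11 of those 12 and 0 of those 4 higher on array a. The 12-month females, with ratios of 1.81 and 1.38, had a gap of 0.0467, with 7 of the 12 and all 4 higher on array a. The 9-month males, at 1.55 and 1.51, had a gap of 0.000359. In B6C3Fe array a had the higher ratio (1.89 against 1.67) but the lower members, with a gap of -0.0761 and 3 of the 12 higher. Spa-M, at 2.5 and 2.53, had a gap of 0.0499 with 9 of the 12 higher. Without array a of the 9-month females, 19 members were called and all 16 remained called. What part RNA quality has in the spastic difference was not tested beyond these fits.

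**Figure D5:**
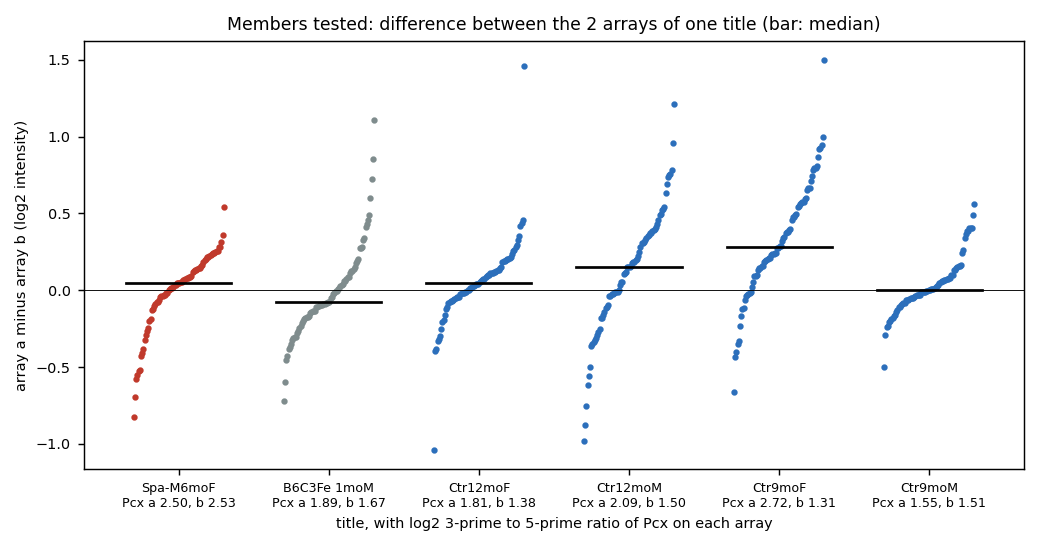
Difference between array a and array b of a title (log2 intensity) for each of the 76 members tested, sorted within the title, with the median as a bar and the Pcx ratio of each array under the axis. The title with the widest gap in Pcx ratio, the 9-month female controls (2.72 against 1.31), has the highest median, 0.28.

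Against B6C3Fe, the youngest mice, spastic cords differed in 1 of 76 members, which was higher (1.32%; background 2.20%, of which 1.53% higher). Ndufab1, the mitochondrial acyl carrier protein and a complex I subunit, had 12.32, 12.45, 12.41, 12.43 and 12.20 in spastic samples, 11.63 in B6C3Fe and 12.04, 12.07, 12.21 and 12.08 in controls. It was higher in spastic cords by 0.73 (SE 0.14, adjusted p = 0.0263, limma), and the B6C3Fe sample was the lowest of all. The B6C3Fe group is 1 sample with no spread of its own, taken to vary like the others, and the call was lost without Spa1, without Spa-sev, with only the 1a arrays or without the trend in limma's variance. Against controls the same gene missed the threshold (0.26, adjusted p = 0.0554). Against B6C3Fe, 12 members had an unadjusted p under 0.05. Uqcrb, a complex III subunit, had 11.28, 11.71, 11.33, 10.67 and 11.56 in spastic samples, 10.12 in B6C3Fe and 11.30, 11.25, 11.36 and 11.42 in controls. B6C3Fe was the lowest, but neither the spastic difference of 1.19 (adjusted p = 0.0515) nor the B6C3Fe minus control difference of -1.21 (adjusted p = 0.0778) passed.

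B6C3Fe and control cords differed in 0 of 76 members (background 0.644%), with 7 at an unadjusted p under 0.05 in limma. Cycs at -0.68 (adjusted p = 0.185) and Sdha at -0.58 (adjusted p = 0.116) were among them. The 3 comparisons share samples, so their values are not independent. Among controls, 0 members were called between 12 and 9 months (background 0.00%, 2 at an unadjusted p under 0.05), and 0 between females and males (background 0.0403%, 2 at an unadjusted p under 0.05). The median member difference was -0.01 for 12 minus 9 months and 0.03 for female minus male.

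The genes around the respiratory chain were taken from lists and read by the probe set with the highest mean for each gene. Of 17 partners and assembly factors tested, 2 were higher and 6 lower in spastic cords (47.1%, against 19.3% of all probe sets tested), with a median difference of -0.24. Atpif1, the inhibitor of ATP synthase, was higher by 0.35 (adjusted p = 0.0499), as was Etfb (0.33, adjusted p = 0.0479). Etfa and Etfdh, which feed electrons from fat oxidation into the chain together with Etfb, fell by 0.55 on the log2 scale (adjusted p = 0.0201 and 0.0441). Sdhaf2, which puts the flavin into Sdha, fell by 0.55 as well (adjusted p = 0.00886), Acad9, a complex I assembly factor, by 0.53 (adjusted p = 0.0243), and the outer-membrane channels Vdac2 and Vdac3 by 0.72 and 0.32 (adjusted p = 0.00517 and 0.0267).

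Of 19 genes of the citric acid cycle and pyruvate dehydrogenase, 2 were higher and 2 lower (21.1%, near the 19.3% of all probe sets). Cs, citrate synthase, rose by 0.29 (adjusted p = 0.0322) and Ogdh by 0.27 (adjusted p = 0.0498), while Dld, shared by the 2-oxoacid dehydrogenases, fell by 0.51 (adjusted p = 0.00735) and Pdk1, a kinase that inhibits pyruvate dehydrogenase, by 0.69 (adjusted p = 0.0189). Of 16 biogenesis genes 12.5% were called: the protease Lonp1 was higher (0.54, adjusted p = 0.0369) and Gabpa, a subunit of GABP, was lower (-0.68, adjusted p = 0.0203). Of 14 glycolysis genes, 0 passed limma's test in either direction (2 at an unadjusted p under 0.05). The 13 genes of mitochondrial DNA that encode subunits were not found on the array under the names searched.

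Among cell type lists, endothelial genes were higher in 6 of 7 tested (85.7%, against 8.61% of all probe sets called higher), with summed intensities of 8283 to 10331 in spastic samples and 3814 to 4423 in controls. Neuron genes had 1 higher and 3 lower of 16 (25%), astrocyte genes 0 and 2 of 6 (33.3%), oligodendrocyte genes 1 and 1 of 8 (25%), and blood genes 0 and 0 of 3 (0 at an unadjusted p under 0.05, limma). The neuron and oligodendrocyte shares are near the 19.3% of all probe sets called, and these lists are short. Some of the called genes differed by much more than any member. Of the neuron genes, Syt1, Map2 and Nefl fell by 2.87, 2.90 and 1.115 on the log2 scale, and Syp rose by 0.70. Of the oligodendrocyte genes, Ugt8a fell by 3.61 and Sox10 rose by 0.42. The part of these cell types in the member differences was not tested.

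The 23 members below the filter include 6 genes with no probe set tested. At or under the floor, 3 members lay on every array and 11 on 8 or more of the 16. Their differences are understated where values are set to the floor, and besides Cox7a1 and Cox8b 0 of them had groups that did not overlap.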

How the data were processed

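Spinal cord RNA was hybridised to 16 single-colour arrays. The authors' deposited table holds linear intensity values for 12488 probe sets; their software was not given in the sources used here. Means trimmed by 2% at each end were 800.4 to 800.5 on every array, so the scaling was kept. Values under the 20th percentile (60.9) were raised to it, and the deposited intensities were put on a log2 scale. The 66 control probe sets (prefix AFFX) were left out; 10833 of the others have 1 symbol, 396 several and 1193 none. All 99 members matched the RefSeq gene table by Entrez ID. Groups came from titles; arrays of a title were averaged to 10 samples.

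limma 3.58.1 (R 4.3.3; lmFit, eBayes with a trend) fitted group without a sex term, since titled sex went against Xist in 2 spastic samples; age and sex contrasts came from a fit with both as additive terms within controls. Tests were 2-sided, adjusted over 7453 probe sets, and tested on simulated data. Named were the members called, the extremes of level and difference of each complex, tissue isoforms and their partners, complex II, the c-ring genes, genes whose probe sets disagree, and up to 4 called genes of a list, with the partner and assembly list, the muscle markers and Uqcrb and Ndufab1 given beyond this rule after their values were seen. Members and lists were chosen with earlier results of these data known. Alternatives changed the floor, filter, scaling, unit of replication, sex, age and RNA quality terms, and left out samples.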

Additional observations from a re-analysis of the deposited data

Results flagged for a closer look

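In 51 named probe sets, each group of 4 or 5 samples was searched for a sample far from the others by Dixon's gap ratio. This picks out about 1 in 20 groups by chance, and 3 of 102 groups stood out. The 102 include groups with every sample at the floor, as for Ndufaf4 on 161353_r_at and Cox8c on 161475_f_at. Such groups could not stand out, so the 1 in 20 does not hold for them. Atp5d on 94279_at was at 9.036 in the 12-month female control, against 8.30 to 8.36 in the other controls. Cox6c was at 13.69 in Spa-M, against 13.50 to 13.54 in the other spastic samples. Ndufa8 was at 11.36 in the 9-month female control, whose arrays differed in Pcx ratio, against 11.08 to 11.12 in the other controls.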

How the results depend on the processing

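The 16 calls between spastic and control cords became 5 with only the 1a arrays, 9 with B6C3Fe among the controls and log2 age as a term, 9 on leaving out spastic samples titled male, 2 among samples titled female alone and 0 with the Pcx ratio as a term; with 1 sample left out they were 7 to 19 (7 without the 12-month female or the 9-month male control, 10 without Spa1). The replicate block (letter a or b) gave 19. The 1 call against B6C3Fe became 3 with the 40th percentile floor, no filter or the 60th percentile filter, 8 with every array as a replicate, 4 with a random block or without array a of the 9-month females, 7 with the replicate block, and 0 with the 1a arrays or without the trend; it was 0 to 2 with 1 sample left out (0 without Spa1 or Spa-sev). The 0 calls for B6C3Fe minus control became 1 with no filter, without the spastic samples titled male or with Pcx, 5 with every array or the replicate block, 2 with the random block, and 0 to 1 with 1 sample left out. Female minus male became 1 with no filter. The median member difference of 0.06 was 0.00574 with no filter, 0.118 with the 60th percentile filter, -0.0059 with the 1a arrays and 0.102 without array a of the 9-month females. The letters a and b name arrays of a title and pair no groups. Fewer samples entered the fits that left arrays out; for the rest the cause was not tested.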
